A study of Homo sapiens with 4 samples.

Results

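The transcripts that sense and reverse phosphorylation of the translation factor eIF2alpha were examined in A375 cells, an established human melanoma line. They are 9 genes chosen by name out of 56832 in the deposited table: the 4 eIF2alpha kinase genes EIF2AK1, EIF2AK2, EIF2AK3 and EIF2AK4, the substrate gene EIF2S1, the phosphatase subunit genes PPP1R15A and PPP1R15B, the mitochondrial protease gene OMA1, and the GCN2 activator gene GCN1L1. The first 8 symbols were found as listed, and GCN1L1 was found under GCN1, for which RefSeq gives it as a synonym. Cells of both groups carried the WT genotype and were grown in serum-containing medium. They received 1 mM octanoate, a saturated medium-chain fatty acid, or the isopropanol vehicle alone for 48 h, with 2 libraries of total RNA per group. The labels do not say whether the libraries of a group came from separate cultures, so p-values are not known to cover the spread between cultures. For each gene, limma also draws its variance in part from other tested genes of like level. All libraries came from this 1 established line, and fewer cells and less RNA per cell cannot be told apart in bulk RNA.

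eIF2 carries the initiator tRNA to the ribosome. When its alpha subunit is phosphorylated, the exchange factor eIF2B is blocked, general translation falls, and a few mRNAs such as that of ATF4 are translated better, which is called the integrated stress response. HRI (EIF2AK1) is known to respond to heme shortage and to mitochondrial stress relayed by OMA1 and DELE1, PKR (EIF2AK2) to double-stranded RNA, PERK (EIF2AK3) to misfolded protein in the endoplasmic reticulum, and GCN2 (EIF2AK4) to uncharged tRNA and stalled ribosomes, with GCN1 as its partner. PPP1R15A and PPP1R15B bring protein phosphatase 1 to eIF2alpha to remove the phosphate. These proteins are switched mostly by activity, which RNA counts do not measure.

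Recovered read totals were 74648605 and 76922530 for vehicle and 67785956 and 78005035 for octanoate, and the 9 genes had between 932 and 29643 reads in each library. The melanoma label was checked on 8 marker genes. SOX10, a lineage transcription factor, had 34072 to 41363 normalised counts in the 4 libraries, while the pigment genes MLANA (34.9 to 52.0) and TYR (1.93 to 3.93) were low. Of the 7 markers tested, 1 was higher and 2 lower by limma: S100B fell from 4234 and 3741 to 1917 and 1746 normalised counts (log2 difference -1.12, limma adjusted p 9.15e-12), MITF fell by 0.48 (2.33e-06), and PMEL rose by 0.55 (0.0289, or 0.0846 to 0.125 without any 1 library) from a level of 65.8 and 65.9. The 8 markers summed to 45149 and 49400 in vehicle and to 38666 and 43758 in octanoate. Blood-cell genes were close to absent, with 1.93 to 10.8 normalised counts for PTPRC and 1.08 to 2.91 for CD3E. The 8 markers of other cell types, of which none was at 0 in any library, summed to 12642 and 14516 in vehicle and 11870 and 12306 in octanoate, nearly all of it from KRT18. Of the 6 of these tested, the endothelial gene PECAM1 rose from 121 and 122 to 249 and 221 normalised counts (log2 difference 0.95, limma adjusted p 1.05e-05). The other endothelial gene, CDH5, did not pass the test (log2 difference -0.31, limma adjusted p 0.659). It had 20.6 and 14.5 normalised counts in vehicle and 8.66 and 21.7 in octanoate. The fibroblast gene COL1A1 fell from 394 and 393 to 228 and 259 (log2 difference -0.69, limma adjusted p 3.63e-05). The other fibroblast gene, DCN, had a log2 difference of -0.34 and did not pass (limma adjusted p 0.101). The part of these shifts in the results was not tested.

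After 48 h of octanoate, both phosphatase subunit transcripts were higher, the OMA1 transcript was lower, and no kinase transcript passed the limma test over all genes. PPP1R15B rose 1.20-fold, PPP1R15A rose 1.14-fold, and OMA1 fell to 0.849 of its vehicle level. Normalised counts were compared with limma on log2(normalised count + 1), and p-values were adjusted by Benjamini-Hochberg over 20250 tested genes. All 9 genes passed the filter of a mean normalised count of at least 10. Of the 9, 3 had an adjusted p under 0.05 and were called (33.3%). They were 2 higher genes and 1 lower gene, beside 29.9% of all tested genes, 16.2% higher and 13.7% lower. The share is near that background and is no result about these genes as a set. The groups did not overlap for 8 of the 9 genes (88.9%), against 63.1% of tested genes. The median log2 difference was -0.03 over the 9 genes and 0.01 over all tested genes, and the median absolute log2 difference was 0.13 and 0.19. All 9 genes lie among the 9003 tested genes with a mean of at least 1000. In that range the median absolute log2 difference was also 0.13 and 38.1% of genes were called. The share without overlap was not counted there, so 88.9% against 63.1% is no result about these genes. A larger absolute difference than that of PPP1R15B was found in 38.1% of all tested genes, and one larger than those of OMA1 and PPP1R15A in 42.3% and 50.9%.

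**Figure D1:**
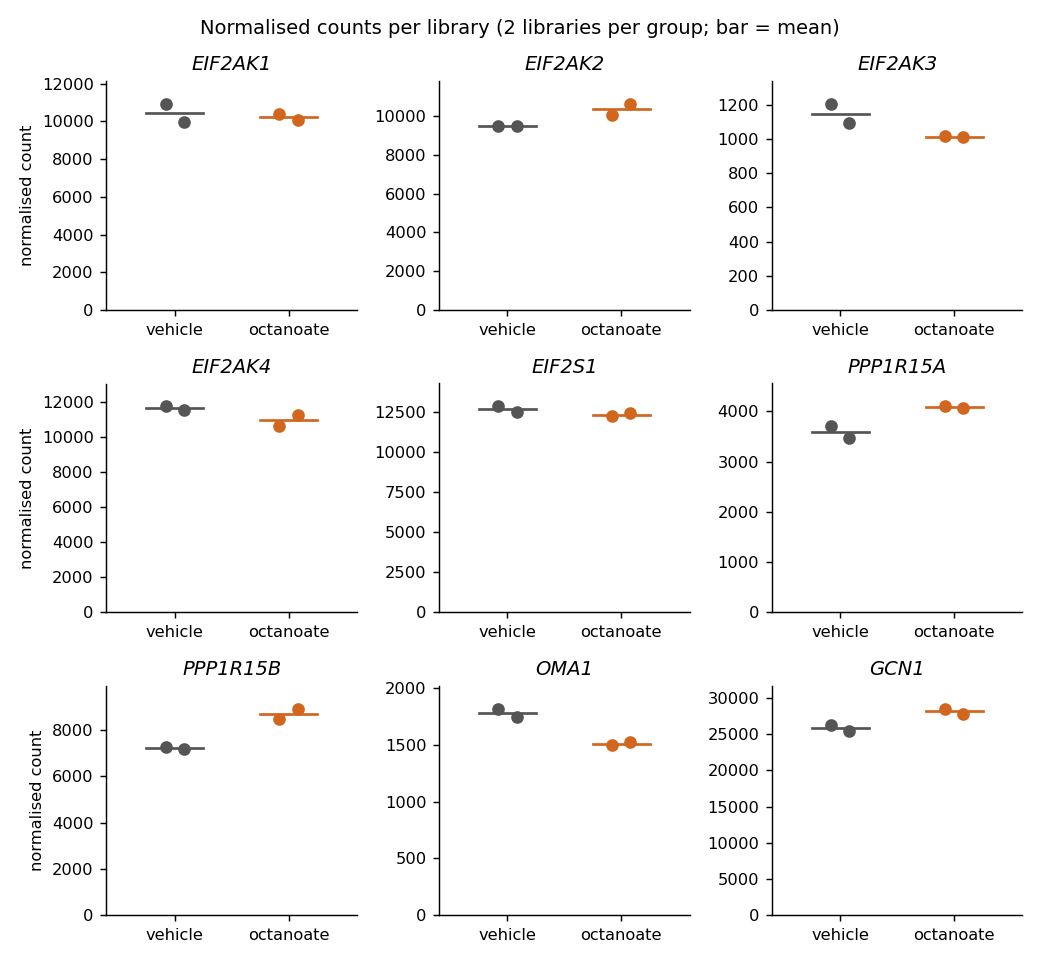
Normalised counts (vertical axes, each from 0) of the 9 genes in the 2 vehicle and 2 octanoate libraries; points are libraries and bars are group means. The groups are separate for every gene except EIF2AK1, but by at most 20.3% of the vehicle mean, the difference of PPP1R15B.

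PPP1R15B encodes the subunit that is present without stress and keeps eIF2alpha dephosphorylated. The gene lies at chr1:204403387-204411791 on the minus strand (GRCh38, GENCODE 29). Its normalised counts were 7276 and 7194 with vehicle and 8481 and 8922 with octanoate. Both octanoate values lay above both vehicle values. The log2 difference was 0.27 (SE 0.06, limma adjusted p 0.000873), a 1.20-fold rise with a 95% interval from 1.11 to 1.30. The call was kept when any 1 library was left out, and was lost when the variance prior had no intensity trend (limma adjusted p 0.0979).

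PPP1R15A encodes GADD34, the subunit known to be induced by the integrated stress response itself, and lies at chr19:48872392-48876057 on the plus strand. It had 3710 and 3465 normalised counts in vehicle and 4099 and 4060 in octanoate. The 2 octanoate libraries were close to each other and above both vehicle libraries. The log2 difference was 0.19 (SE 0.06, limma adjusted p 0.0228), a 1.14-fold rise with a 95% interval from 1.04 to 1.24. The limma adjusted p was 0.202 without vehicle 2, 0.102 without octanoate 1 and 0.0788 without octanoate 2, so this call needed each of those libraries. It was also lost without the low-count filter (limma adjusted p 0.128) and without the intensity trend (0.182).

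The 2 phosphatase subunit transcripts were compared within each library as normalised counts per kilobase of exon. The ratio of PPP1R15A to PPP1R15B was 0.862 and 0.814 in vehicle and 0.817 and 0.769 in octanoate. These ranges overlapped, and the exact two-sided permutation p was 0.667, where 2 libraries against 2 can give no less than 0.33. With that floor the test could not have called a difference between the rises of the 2 genes.

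The promoter letters of both genes are shown because both transcripts rose and each holds a sequence linked to stress-responsive factors. They come from RefSeq on GRCh38.p14 and are cut before the first annotated exon base, with the matched motif in capitals. PPP1R15A lies on the plus strand, and the stretch is chr19:48872171-48872391. PPP1R15B lies on the minus strand, and the stretch is chr1:204411818-204412067.
PPP1R15A: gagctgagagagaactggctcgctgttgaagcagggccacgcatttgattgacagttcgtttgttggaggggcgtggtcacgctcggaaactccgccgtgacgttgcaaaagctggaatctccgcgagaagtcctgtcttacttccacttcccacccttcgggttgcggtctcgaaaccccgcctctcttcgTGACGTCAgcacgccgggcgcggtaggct
PPP1R15B: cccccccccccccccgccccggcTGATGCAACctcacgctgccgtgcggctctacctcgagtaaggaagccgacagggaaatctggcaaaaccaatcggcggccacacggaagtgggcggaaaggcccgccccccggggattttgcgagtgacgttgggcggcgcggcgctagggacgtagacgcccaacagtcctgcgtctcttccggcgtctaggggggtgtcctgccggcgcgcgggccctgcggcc
The capitals in PPP1R15A spell TGACGTCA, the cAMP response element bound by CREB and ATF proteins, 58 bases before the RefSeq start. Those in PPP1R15B match TGATGNAAN, the C/EBP-ATF response element bound by ATF4 with C/EBP partners, 227 bases before the start. Both strands were searched in windows from 250 bases before to 50 bases after each start. TGACGTCA was found in 1.85% of 35116 such windows and TGATGNAAN in 3.61%. Of the 9 genes, 8 had a window and EIF2AK1 had none, and each of these motifs was found in 1 of the 8. The ER stress response element, CCAAT and CCACG with 9 bases of any kind between them, was in none of the 8, and in 0.0769% of all windows. No motif was found to overlap another in these genes, and a match is a description of letters only.

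OMA1 encodes the inner-membrane protease that is activated when mitochondria lose membrane potential and that cleaves DELE1 and OPA1, and lies at chr1:58415384-58546802 on the minus strand. Its normalised counts were 1818 and 1744 in vehicle and 1499 and 1524 in octanoate. Both octanoate libraries were below both vehicle libraries, by more than either group's spread. The log2 difference was -0.24 (SE 0.07, limma adjusted p 0.0103), which is 0.849 of the vehicle level with a 95% interval from 0.770 to 0.936. The limma adjusted p was 0.0973 without vehicle 1 and 0.0588 without octanoate 1, and it was 0.0698 without the low-count filter and 0.112 without the intensity trend. Exons of OMA1 share 257 bases with exons of DAB1 on the same strand in GENCODE 29. DAB1 had 75.6 and 60.1 normalised counts in vehicle and 17.3 and 16.3 in octanoate, far fewer than OMA1 in every library.

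DELE1, which carries the mitochondrial signal from OMA1 to HRI, is listed in the table under its older symbol KIAA0141. It had 4805 and 4544 normalised counts in vehicle and 4844 and 5004 in octanoate. The 2 groups were separate but closer than the vehicle libraries were to each other. Its log2 difference of 0.08 (SE 0.06) did not pass the test (limma adjusted p 0.371), which is 1.05-fold.

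**Figure D2:**
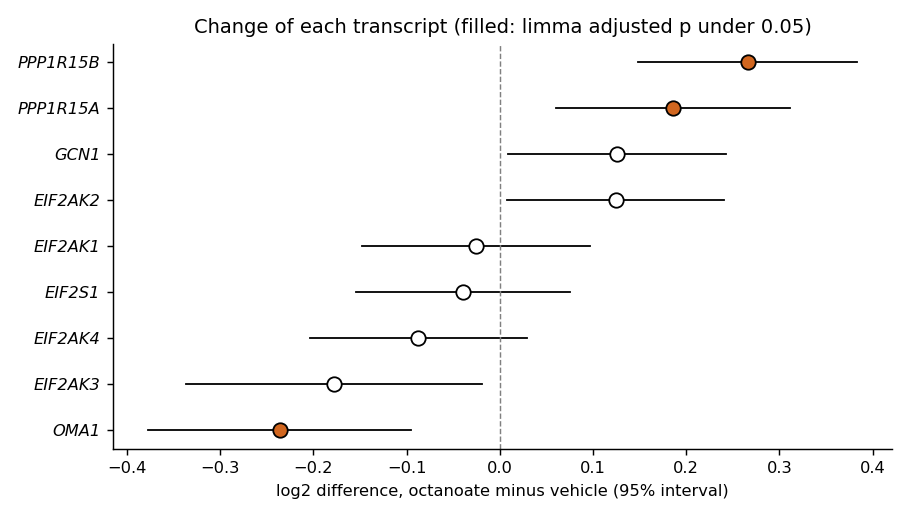
Log2 difference, octanoate minus vehicle (horizontal axis), of the 9 genes with its 95% interval; filled points have a limma adjusted p under 0.05. PPP1R15B at 0.27 and PPP1R15A at 0.19 are the filled points to the right of 0, and OMA1 at -0.24 is the one to the left.

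Of the 4 kinase genes, 0 passed the limma test over all genes, beside 29.9% of all tested genes. With only 4 genes, this count is no result about the kinases as a set. The unadjusted p was under 0.05 for 2 of them, a share that was not counted over all tested genes. On the recovered reads, edgeR and DESeq2 also called 0 of the 4, beside 32% and 30.3% of the genes each tested. With equal column totals limma called EIF2AK3, beside 32.5% of all tested genes. After trends with GC content and length were taken out limma called EIF2AK2, beside 41.7% of the 15565 genes in that fit. Kinase calls under a replicate block are given where the dependence on processing is described. HRI (EIF2AK1, chr7:6022244-6059230, minus strand) had 10928 and 9944 normalised counts in vehicle and 10401 and 10086 in octanoate. Both octanoate values lay between the vehicle values, and EIF2AK1 was the only 1 of the 9 genes whose groups overlapped. Its log2 difference was -0.03 (SE 0.06, limma adjusted p 0.793), with a 95% interval of the fold from 0.903 to 1.07. The sign of this small difference turned without vehicle 1 (0.04) and after trends with GC content and length were taken out (0.01). In GENCODE 29, 9.59% of the exon bases of EIF2AK1 overlap AIMP2 on the opposite strand, which had 2486 and 2393 normalised counts in vehicle and 2463 and 2335 in octanoate.

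PKR (EIF2AK2, chr2:37099210-37157065, minus strand) had 9478 and 9507 normalised counts in vehicle and 10068 and 10633 in octanoate. The octanoate libraries were both higher, and they differed from each other by more than the vehicle libraries did. The log2 difference of 0.12 (SE 0.06) missed the threshold (limma adjusted p 0.103, unadjusted 0.0379), with a 95% interval of the fold from 1.01 to 1.18. After trends with GC content and length were taken out, its limma adjusted p was 0.0253. PKR is itself an interferon-induced gene, and 30 bases around the interferon-stimulated response element at its start are shown, chr2:37156967-37156996 on the minus strand of GRCh38.p14, with the element, GAAA repeated after 2 bases of any kind, in capitals.
EIF2AK2: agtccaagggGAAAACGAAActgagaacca
This motif was found in 3.57% of all windows and in 1 of the 8 windows of these genes.

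PERK (EIF2AK3, chr2:88556741-88627576, minus strand) had 1204 and 1092 normalised counts in vehicle and 1016 and 1010 in octanoate. Both octanoate libraries were lower than both vehicle libraries, and the vehicle libraries were the more spread. The log2 difference was -0.18 (SE 0.08) with a limma adjusted p of 0.0845 and an unadjusted p of 0.0294, and the 95% interval of the fold ran from 0.792 to 0.987. The difference was -0.11 without vehicle 1 (limma adjusted p 0.468) and -0.25 without vehicle 2 (0.0652), and with equal column totals the limma adjusted p was 0.0436. EIF2AK3 had the fewest reads of the 9 genes and the largest SE, and 14.4% of its exon bases overlap the antisense gene AC104134.1.

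GCN2 (EIF2AK4, chr15:39934146-40035591, plus strand) had 11752 and 11541 normalised counts in vehicle and 10662 and 11268 in octanoate. The octanoate values were both lower, but they differed from each other by more than the nearest vehicle and octanoate libraries did. The log2 difference was -0.09 (SE 0.06, limma adjusted p 0.263), with a 95% interval of the fold from 0.868 to 1.02. GCN1, whose product binds GCN2 and the ribosome, lies at chr12:120127203-120194710 on the minus strand. It had 26253 and 25452 normalised counts in vehicle and 28533 and 27877 in octanoate, so both octanoate libraries were higher. Its log2 difference of 0.13 (SE 0.06) was not called by limma (adjusted p 0.0994), with a 95% interval of the fold from 1.01 to 1.18. On the recovered reads GCN1 was called higher by edgeR (adjusted p 0.0459) and DESeq2 (0.0414), and by limma with equal column totals (0.0401).

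EIF2S1, which encodes the substrate of all 4 kinases, lies at chr14:67359997-67386516 on the plus strand. It had 12859 and 12510 normalised counts in vehicle and 12231 and 12443 in octanoate. The groups were separate, but the nearest vehicle and octanoate libraries were closer than the libraries within either group. The log2 difference was -0.04 (SE 0.06, limma adjusted p 0.642), with a 95% interval of the fold from 0.898 to 1.05. In GENCODE 29, 4.76% of its exon bases overlap ATP6V1D on the opposite strand.

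The authors' deposited table, which gives their own DESeq2 comparison, called the same 3 of the 9 genes at an adjusted p under 0.05, beside 12.9% of its 33533 genes. Those 33533 include low-count genes that limma did not test here, such as FGF21. The 12.9% is therefore not comparable with the limma share of 29.9%, and is no background for these 9 genes. In the authors' deposited table the log2 fold change was 0.27 for PPP1R15B (adjusted p 0.000101), 0.19 for PPP1R15A (0.0354) and -0.24 for OMA1 (0.0291). GCN1 (0.0621) and EIF2AK2 (0.107) were the next smallest adjusted p-values in the authors' deposited table among these genes.

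Vehicle levels of different genes were compared per kilobase of exon, using the union of exons in GENCODE 29. GCN1 was highest with 2678 ± 58.7 (SD, n = 2) normalised counts per kilobase. It was followed by EIF2S1 with 2245 ± 43.7, EIF2AK1 with 1880 ± 125, PPP1R15B with 1384 ± 11.2 and PPP1R15A with 1160 ± 56.2 (SD, n = 2 each). EIF2AK4 with 974 ± 12.5, EIF2AK2 with 883 ± 1.93, OMA1 with 479 ± 14.1 and EIF2AK3 with 211 ± 14.6 came last (SD, n = 2 each). No 2 neighbours in this order had overlapping vehicle values, and the smallest step was the 1.10-fold one from EIF2AK2 to EIF2AK4. In octanoate these 2 kinases overlapped, with 892 and 942 normalised counts per kilobase for EIF2AK4 and 936 and 989 for EIF2AK2. The order depends on the length used, because the transcripts in use were not resolved. Per kilobase of coding length EIF2S1 was first and EIF2AK2 second, while GCN1 had rank 5. OMA1 and EIF2AK3 were the 2 lowest by all 3 lengths tried.

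**Figure D3:**
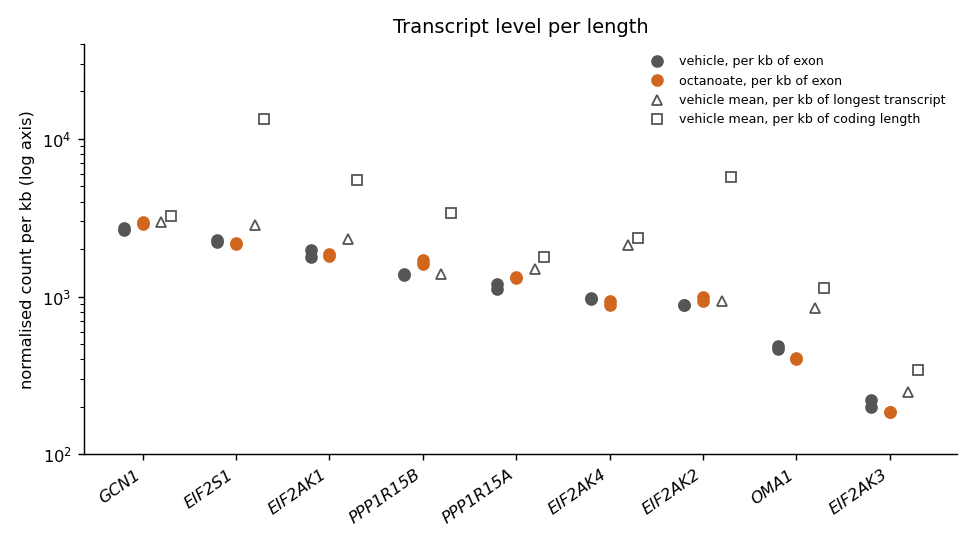
Normalised count per kilobase (log axis) of the 9 genes, ordered by the vehicle mean per kilobase of exon; filled points are libraries, triangles and squares are vehicle means by longest transcript and coding length. EIF2AK3 is lowest by each length, and EIF2S1 and EIF2AK2 shift most with coding length.

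Among the 4 kinase transcripts per kilobase of exon, HRI made up 48.6% and 46.6% in vehicle and 48.2% and 46.2% in octanoate. PKR made up 21.7% and 23.0% in vehicle and 24.1% and 25.1% in octanoate, and GCN2 made up 24.2% and 25.1% in vehicle and 22.9% and 24.0% in octanoate. PERK was the smallest, with 5.47% and 5.23% in vehicle and 4.81% and 4.72% in octanoate. All these shares depend on the length used, and by coding length PKR rather than HRI was the largest in vehicle. The groups were separate for PKR, PERK and GCN2, each with an exact two-sided permutation p of 0.33, the smallest these 4 libraries can give, and overlapped for HRI (0.667). The kinases summed to 4055 and 3842 normalised counts per kilobase in vehicle and 3889 and 3934 in octanoate. The octanoate sums lay between the vehicle sums (exact permutation p 1.0).

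Lists of the partners of these genes were counted in the same limma fit. Their called shares are read beside the 29.9% of all tested genes. Most of the listed genes have a mean of at least 1000, a range in which 38.1% of tested genes were called. Of 9 genes around eIF2 and its exchange factor eIF2B, a list that also holds the eIF2 GTPase activator EIF5 and the assembly factor CDC123, 0 were higher and 2 lower (22.2% called), with a median log2 difference of -0.06. The eIF2B subunit gene EIF2B1 fell from 13331 and 12409 to 10529 and 10848 normalised counts (log2 difference -0.27, limma adjusted p 0.000942). EIF2B4 fell by 0.18 in log2 terms (adjusted p 0.0465, limma), a call lost without vehicle 1 (0.445), octanoate 1 (0.0786) or octanoate 2 (0.183). EIF2B3 had a difference of 0.16 that missed the threshold (0.0544), but was called in 9 of 17 alternatives, with 0.10 without vehicle 2 (0.388) and 0.22 without vehicle 1 (0.0363). Of the 3 catalytic subunits of protein phosphatase 1, which PPP1R15A and PPP1R15B recruit, PPP1CB fell by 0.20 in log2 units (limma adjusted p 0.00824, or 0.107 without octanoate 2). PPP1CC (-0.06, adjusted p 0.439) and PPP1CA (-0.14, adjusted p 0.0914) were not called. PPP1CA was called in 6 of 17 alternatives, and its difference was -0.06 without vehicle 1 (adjusted p 0.583), -0.08 without octanoate 2 (0.520) and -0.22 without vehicle 2 (0.0335).

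A list of genes around each kinase was counted in the same way. In the HRI and mitochondrial relay list, 2 of 10 genes were higher and 0 lower (20% called). ALAS1, which encodes the rate-limiting enzyme of heme synthesis, rose from 6303 and 5914 to 9153 and 8803 normalised counts (log2 difference 0.56, limma adjusted p 6.92e-08). BACH1, a heme-sensing repressor gene, rose by 0.41 in log2 units (limma adjusted p 1.17e-05), and the prohibitin gene PHB2 had a difference of -0.13 (adjusted p 0.107) that was called in 6 of 17 alternatives. In the PKR list, 0 of 7 genes were higher and 3 lower (42.9% called). TARBP2, which encodes a double-stranded RNA-binding inhibitor of PKR, fell by 0.38 (limma adjusted p 7.36e-05), the RNA helicase gene DHX9 fell by 0.34 (5.52e-05), and STAU1 fell by 0.19 (0.0104). The call of STAU1 was lost without vehicle 1 (0.0688), octanoate 1 (0.0987) or octanoate 2 (0.0532).

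The PERK list also holds other ER stress sensor genes, such as ERN1 and ATF6. It held 3 higher and 3 lower genes of 8 (75.0% called). ERN1, which encodes the parallel stress sensor IRE1, rose from 541 and 556 to 920 and 893 normalised counts (log2 difference 0.72, limma adjusted p 3.17e-07). HSPA5, which encodes the chaperone BiP that holds PERK inactive, fell from 99278 and 93446 to 79041 and 79858 (log2 difference -0.28, limma adjusted p 0.00151), and CRELD2 fell by 0.52 (5.43e-06). These members of the list moved in opposite directions. The GCN2 list held 1 higher and 3 lower genes of 8 (50% called). ABCF3, a homologue of the yeast GCN2 co-activator, fell by 0.23 in log2 units (limma adjusted p 0.00600, or 0.0898 without vehicle 1). MAP3K20, which encodes the ribosome-stress kinase ZAK, rose by 0.21 (0.0123, or 0.110 without vehicle 2 and 0.113 without octanoate 2). ABCF2 fell by 0.21 (0.0292, or 0.296 without vehicle 1 and 0.214 without octanoate 2), and 45.8% of its exon bases are shared with AC021097.2 on the same strand.

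Of the 14 tested transcription factors and output genes of the integrated stress response, 13 were higher and 1 lower, with a median log2 difference of 0.59. This list was drawn up with earlier results of these libraries known and is not independent evidence of its direction. GDF15, a stress cytokine gene, rose from 617 and 563 to 2891 and 2566 normalised counts, which is 4.61-fold. CHAC1, which encodes a glutathione-degrading enzyme, rose 2.74-fold, and the transcription factor gene ATF3 rose from 372 and 333 to 860 and 833 normalised counts. The limma adjusted p was 2.22e-16 for GDF15, 6.75e-13 for CHAC1 and 1.67e-10 for ATF3. ATF4, chosen after its values were seen, went from 28967 and 27092 to 37801 and 36088 normalised counts, a 1.32-fold rise (limma adjusted p 1.23e-05). The rises of both phosphatase subunits were smaller than that of ATF4 in these libraries, although the difference between the genes was not tested. FGF21 was not tested because its mean was below 10.

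**Figure D4:**
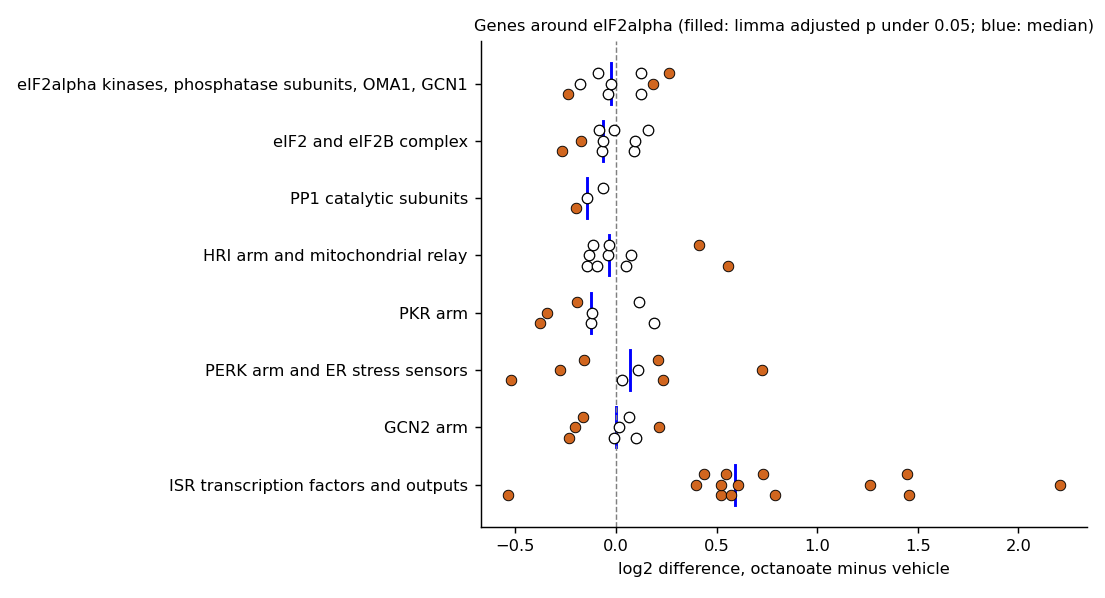
Log2 difference, octanoate minus vehicle (horizontal axis), of each tested gene in 8 lists around eIF2alpha; filled points have a limma adjusted p under 0.05 and blue lines are list medians. The 9 genes of the top row lie between -0.24 and 0.27, while the stress response outputs in the bottom row reach 2.21.

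The genes whose profile over the 4 libraries was most like that of a called gene were found by the Euclidean distance between centred log2 values, among 9002 other genes with a mean of at least 1000. For PPP1R15B they were NLRP1 (distance 0.00954), C16orf52 (0.0126) and ZNF121 (0.0138), with log2 differences of 0.26, 0.27 and 0.26. For OMA1 they were TGS1 (0.0108), SEC23IP (0.0128) and SWAP70 (0.0134), with log2 differences of -0.23, -0.25 and -0.24. Such profiles were common: 420 genes lay within a distance of 0.1 of PPP1R15B and 1045 within 0.1 of OMA1.

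**Figure D5:**
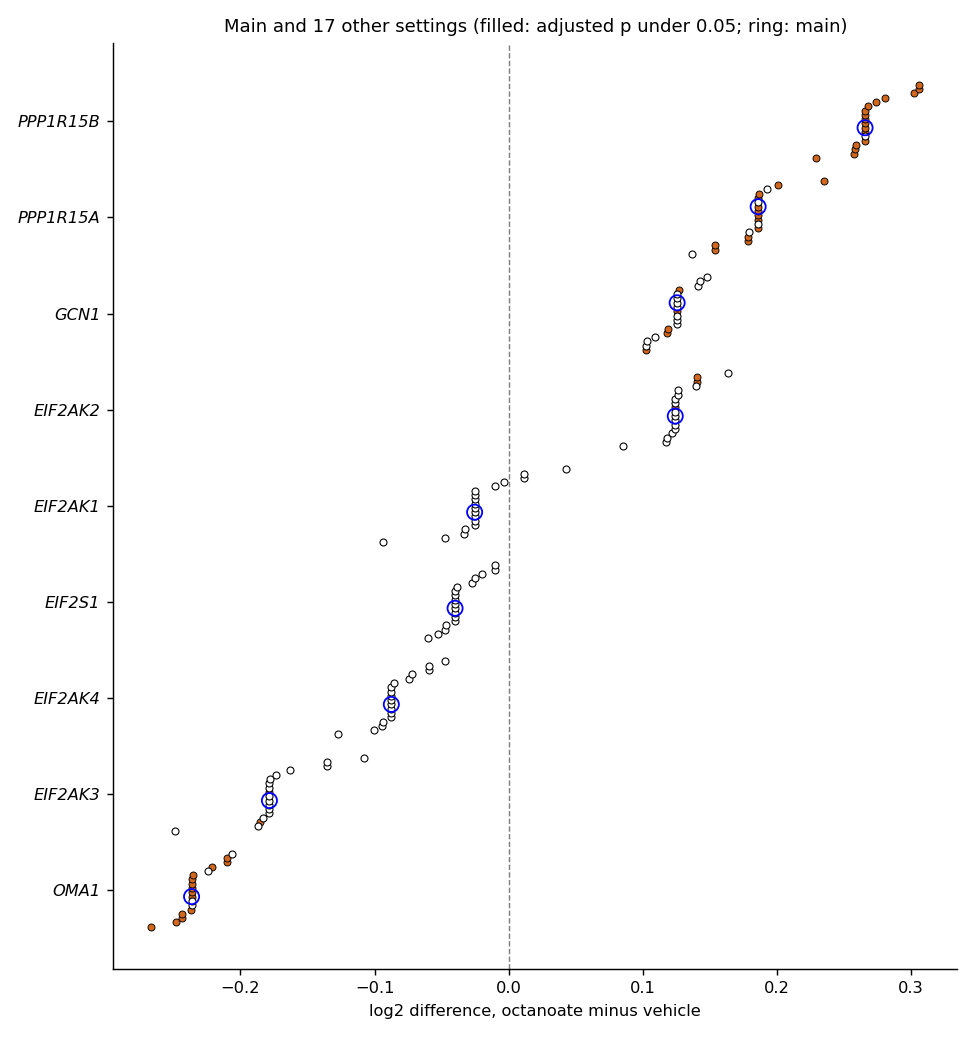
Log2 difference, octanoate minus vehicle (horizontal axis), of the 9 genes under the main setting (ring) and 17 others (points, spread vertically for view; filled where the adjusted p was under 0.05). PPP1R15B stays between 0.23 and 0.31 and OMA1 between -0.27 and -0.21, and only EIF2AK1 crosses 0.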

How the data were processed

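RNA from 4 A375 libraries was sequenced. The submitters' processing notes name bcl2fastq 2.17, Trim Galore, STAR 2.4, Picard, HTSeq 0.9.1, DESeq2 and the build hg38. The annotation and the use of strand are not given in the sources used here, so overlapping genes are uncertain. The authors deposited a normalised signal per gene and library, which per the file name comes from DESeq2. Every positive value was a whole multiple (tolerance 0.001) of its library's smallest positive value (100% of values), and whole reads were recovered by that step. The authors' second table gives, per the file headers, a log2 fold change, a test score (stat) and p-values.

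Values were fitted with limma 3.58.1 (R 4.3.3, intensity trend) on log2(normalised count + 1), which understates changes of low genes, for 20250 genes with a mean of at least 10, two-sided, with Benjamini-Hochberg adjustment. edgeR 4.0.16 and DESeq2 1.42.0 were run on the recovered reads. Gene lengths, GC content and overlaps came from GENCODE 29 (GRCh38), promoters from RefSeq. The fits were tested on simulated data. Replicates differed by more than sampling noise (chi-square per degree of freedom 4.77 in vehicle and 6.50 in octanoate).

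The 9 genes and the partner lists were chosen with earlier results of these data known. Named partners were the 3 genes of each list with the smallest p, lists of 3 genes in full, and DELE1. Alternatives were other pseudocounts, filters, scalings and variance priors, a replicate block, GC content and length trends removed, and each library left out.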

Additional observations from a re-analysis of the deposited data

How the results depend on the processing

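Over the 9 genes, 153 refits (17 alternatives each) left 130 on the same side of the threshold with the same sign; 10 lost a call, 10 gained one and 3 turned in sign. All 3 turns were of EIF2AK1, which was never called: 0.0427 without vehicle 1 (-0.0934 to 0.0427 over the 4 libraries left out in turn) and 0.012 after trends with GC content and length were taken out, also under the replicate block. Of all tested genes 6048 were called, against 2595 with no filter and 1625 with no intensity trend. The count of the 9 genes called was 3 (2 higher, 1 lower), beside 29.9% of all tested genes. With no filter it was 1 (1 higher, 0 lower), beside 5.97%. With equal column totals it was 5, with 2 lower, beside 32.5%. With no intensity trend limma called 0 (0 higher, 0 lower), beside 8.02%. In that fit 2 of the 9 genes had an unadjusted p under 0.05, a share not counted over all tested genes. The count of the 9 genes and the share of all genes were both lower with no filter and with no intensity trend. With equal column totals the count was higher although the share of all genes was close to the main one, so the count did not simply follow the share. Without any 1 library the log2 difference was 0.23 to 0.30 for PPP1R15B, 0.14 to 0.24 for PPP1R15A and -0.27 to -0.21 for OMA1. The calls lost in these fits are given above with PPP1R15A and OMA1. edgeR and DESeq2 each called 4, beside 32% and 30.3% of the genes each tested. GENCODE 29 models covered 76.9% of tested genes, so the GC content and length correction, which covers all 9 genes, cannot be read over all tested genes. Its adjusted p-values and called shares refer only to the 15565 tested genes with a model.

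With the replicate number as a replicate block, 6 of the 9 genes were called (4 higher, 2 lower), beside 41.4% of all tested genes. With that block plus the GC content and length correction 5 were called (4 higher), beside 51.1% of the 15565 tested genes with a model. The 6 included 2 of the 4 kinases, EIF2AK2 (limma adjusted p 0.00902, or 0.000516 with the correction) and EIF2AK3 (0.0161, or 0.0533). Among genes, the deviations of same-numbered libraries correlated with r = 0.13, or 0.39 over the 9003 genes with a mean of at least 1000, from 2 pairs only, and the labels do not say what the numbers mark.

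The vehicle span from the lowest to the highest of the 9 genes per kilobase was 12.7-fold, 12.1-fold by longest transcript and 39.1-fold by coding length. The vehicle shares of EIF2AK1, EIF2AK2, EIF2AK3 and EIF2AK4 were 41.3%, 16.8%, 4.37% and 37.5% by longest transcript, and 39.5%, 41.2%, 2.45% and 16.9% by coding length. The vehicle ratio of PPP1R15A to PPP1R15B was 1.09 by longest transcript and 0.524 by coding length. These values moved because the length changed; differences between groups for 1 gene do not depend on it.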

Other observations

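Promoter letters of the stress response output genes were searched in the same windows as those of the kinase and phosphatase genes. Of 15 such genes, 14 had a window, and TGATGNAAN was found in 5 of them: ATF3, ASNS, CHAC1, CEBPG and FGF21. These genes were named for their match, after the search. The match in CEBPG began 42 bases before the start and that in ASNS 68 bases before it. The full cAMP response element TGACGTCA was found in 0 of the 14 windows.

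ATF5, chosen after its values were seen, was the only tested member of the output list that was lower. It had 885 and 855 normalised counts in vehicle and 568 and 634 in octanoate, so that its log2 difference was -0.54 (SE 0.09, limma adjusted p 3.45e-05). Its groups did not overlap. In GENCODE 29, 21.2% of the exon bases of ATF5 overlap NUP62 on the opposite strand, and the part of that overlap in the fall was not tested.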
